A study of Silurus asotus with 15 samples.

Results

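Ammonia channels and sodium/proton exchangers were followed across 15 libraries of Silurus asotus, the Amur catfish, which lives on the bottom of fresh waters. Members were C0J50_07182, annotated as the Rh family C glycoprotein a, and every locus whose protein name in the deposited annotation contains "ammonium transporter Rh", "Rh family", "Rh type" or "sodium/hydrogen exchanger", with the regulatory cofactors of the exchangers left out. This gave 17 of the 25089 genes in the expression table: 4 Rh proteins, 4 exchangers of the plasma membrane class (NHE1 in 2 loci, NHE2 and NHE5), 5 of the organelle class (NHE6 in 3 loci, NHE7 and NHE8) and 4 of the SLC9B class, all named 9B2 or 9B2-like. The annotation marks 6 of the 17 models as partial. Each locus counts as a member of its own, although some short models may be pieces of the same gene.

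Poly(A) RNA of adult fish taken from a benthic environment was made into paired-end sequencing libraries, 1 each for the tissues labelled brain, gill, pituitary, heart, muscle, liver, pancreas, spleen, head kidney, kidney, ovary, testis, skin, maxillary barbel and mandibular barbel. No treatment, strain or genotype is given, and the number of fish and any pooling of tissues are not stated in the labels. Values are the deposited FPKM, in which fragments are divided by the length of the gene model and by the mapped fragments of the library, so levels are per length and can be compared between genes. With 1 library per tissue no spread between replicates exists, no test was possible, and every call below is a threshold on size, valid for these libraries alone.

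Rh proteins are membrane channels that let ammonia pass down its gradient, and in fish they are known from the gill, where most nitrogenous waste leaves the body as ammonia. Rhag is the form of the red blood cell membrane, Rhbg is known from the basolateral and Rhcg from the apical side of epithelial cells. Sodium/proton exchangers, the NHE proteins of the SLC9 family, swap a sodium ion for a proton; some sit in the plasma membrane and act on cell pH, volume and acid secretion, and others act on the pH of endosomes and the Golgi. In the gill and skin of freshwater fish, an apical exchanger working beside an Rh channel is a known arrangement of ionocytes, the salt- and acid-transporting cells.

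The libraries labelled brain and gill went against their labels. Over 12 genes of neurons and glia the summed FPKM was 1.53 in the library labelled brain, with 0 of 12 genes at 1 FPKM or more and 1 listed at 0, against 4241 in the library labelled gill, where 11 of 12 reached 1 FPKM. Over 11 genes of ionocytes and gill epithelium, none of them a member, the sum was 3822 and 153 in the libraries labelled brain and gill. Most of the 3822 came from claudin-4 (1360), keratin 4 (985) and a mucin-5AC-like gene (726). That list also holds genes of other surface epithelia, and its sum was 2104 in skin, 3002 in maxillary and 2197 in mandibular barbel, where keratin 4 made up most of it (2087, 2823 and 2047 FPKM). Of the 11, 7 were higher in the library labelled brain by at least 4-fold in log2(FPKM + 1), with the higher at 5 FPKM or more. By that rule 0 were higher in the library labelled gill and 4 in neither, beside 7.73% and 8.67% of all genes. The 4 include a second FOXI3 locus, C0J50_07609, at 0.0166 against 0.102 FPKM, and mucin-5AC, at 7.37 against 24.2. Among the defining genes, foxi3a, a transcription factor of ionocytes, stood at 118 against 0.106 FPKM, with 0.343 in skin, 0.425 in maxillary barbel and a listed 0 in mandibular barbel, and synaptosomal-associated protein 25-A, a synaptic protein, at 0.0938 against 1659. The names of these libraries are therefore given as labels throughout. Kidney and head kidney carried the labelled difference, with a summed FPKM over 9 nephron genes of 272 and 2.81. That sum was 790 in liver and 325 in ovary, mostly from inositol oxygenase (784 in liver) and low-density lipoprotein receptor-related protein 2 (323 in ovary). Ovary reached 20138 over 12 oocyte genes and testis 144 over 7 spermatid genes. The maxillary and mandibular barbels reached 268 and 280 over 4 taste cell genes, of which calretinin alone made up 246 and 260. Column sums ran from 239905 to 738341, and the smallest recurrent step of the values was 4.17 to 6.31 times coarser in muscle, skin and the barbels than in pituitary and pancreas, so low values are less certain there.

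Of the 17 members, 16 were detected, meaning at least 1 FPKM in at least 1 library, beside 85.2% of all genes. At least 5 FPKM was reached by 10 members (67.6% of all genes) and at least 20 FPKM by 5 (36.5%). Without the libraries labelled brain and gill, 15, 7 and 1 members passed these levels, the last being Rhag. No share of all genes is given for these counts. Members were detected in a median of 3 libraries, against 7 for all genes, and their median tau, an index from 0 for even to 1 for single-library expression, was 0.723 against 0.673. The highest value lay in the library labelled brain for 6 members, which is the highest library of 8.45% of the detected genes. It lay in ovary for 4, in head kidney for 2, and in the library labelled gill, pituitary, spleen, testis and skin for 1 each. For these other libraries no share of all genes was computed, so their counts are a description only. C0J50_06473, counted under head kidney, stayed below 1 FPKM in every library. The number of members at 1 FPKM or more was 12 in the library labelled brain (56.3% of all genes), 12 in kidney (52.9%), 9 in ovary (47.5%), 8 in head kidney (51.3%), 8 in testis (63.2%) and 6 in the library labelled gill (59.0%).

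**Figure D1:**
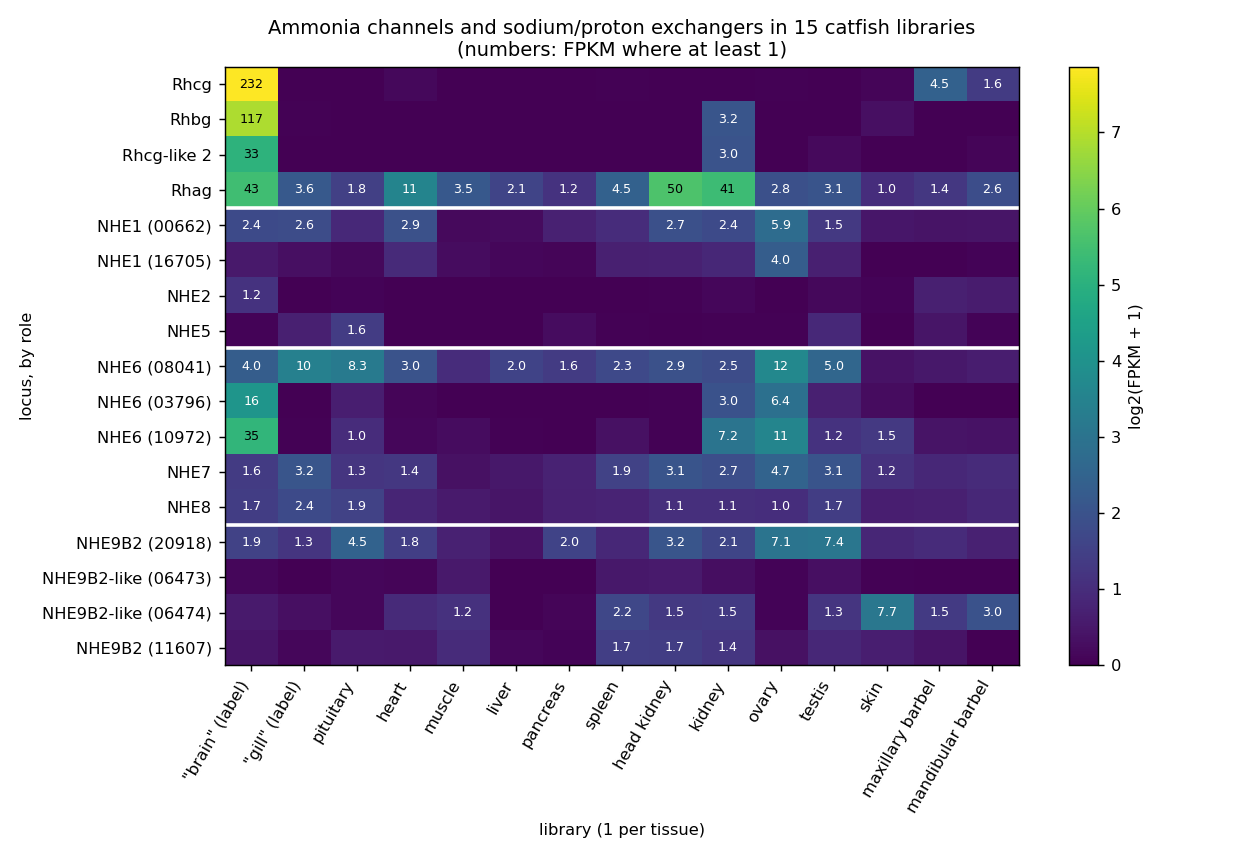
Level of each of the 17 loci (rows, grouped from the top as Rh proteins, plasma membrane, organelle and SLC9B exchangers) in each of the 15 libraries (columns), as log2(FPKM + 1) in colour and as FPKM in print where at least 1. Rhcg at 232 FPKM in the library labelled brain is the highest cell, and Rhag is the row with at least 1 FPKM in all 15 libraries.

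Among the Rh proteins, 3 of 4 were concentrated in the library labelled brain and the fourth, Rhag, was in every library. By the rule for tissue-enriched genes, a highest value of 5 FPKM or more with a lead of 5-fold or more, in log2(FPKM + 1), over every other library, 3 members qualified, beside 9.38% of all genes. All 3 were Rh genes, Rhcg, Rhbg and Rhcg-like 2, and all were enriched in the library labelled brain, which holds 0.598% of all genes by that rule. The log2(FPKM + 1) scale understates folds at low levels. None of the 17 members was tissue-enriched once the libraries labelled brain and gill were left out. The share of all genes without these libraries is not given here, so whether this is particular to the members was not tested.

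Rhcg (C0J50_07182) lies on scaffold784 from 48681 to 52187 on the plus strand of the deposited annotation, whose build is not named in the sources used here, as a partial model of 11 coding exons and 1455 coding bases. Rhcg stood at 232 FPKM in the library labelled brain, 4.49 in maxillary barbel and 1.59 in mandibular barbel. In the other 12 libraries Rhcg was at most 0.133 FPKM, in heart, and it was listed at 0 in 6 of them, the library labelled gill among these. The gap from the library labelled brain to maxillary barbel was 5.41 on the log2(FPKM + 1) scale, and the ratio of FPKM was 51.7. In units of the smallest recurrent step of each library, the barbel values equal about 50.7 and 19.8 steps, while skin, of like step size, held 1.

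Rhbg (C0J50_22849; scaffold178272, 2575848 to 2580896, plus strand, 10 coding exons, 1380 coding bases) stood at 117 FPKM in the library labelled brain. Kidney followed at 3.20 FPKM and skin at 0.259. The library labelled gill was at 0.0380 FPKM, 8 libraries were listed at 0, and head kidney was one of these. The gap between the highest library and kidney was 4.81 on the log2(FPKM + 1) scale. Rhcg and Rhbg thus shared their highest library and differed in the next, a barbel for Rhcg and kidney for Rhbg, with Rhcg at 0.00721 FPKM in kidney and Rhbg listed at 0 in both barbels.

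Rhcg-like 2 (C0J50_13860; scaffold178113, 5602455 to 5613094, minus strand, 10 coding exons, 1425 coding bases), a further locus named as type C, had the kidney pattern of Rhbg rather than the barbel pattern of Rhcg. It stood at 32.8 FPKM in the library labelled brain, 3.0 in kidney and 0.137 in testis. Elsewhere it was at most 0.0795 FPKM, in mandibular barbel, and it was listed at 0 in 5 libraries. Its gap over kidney was 3.08 on the log2(FPKM + 1) scale. The kidney level was 9.16% of that in the library labelled brain for Rhcg-like 2 and 2.74% for Rhbg, percentages computed after the values were seen.

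Rhag (C0J50_05164; scaffold429, 1518542 to 1536517, plus strand, 12 coding exons, 1476 coding bases) was highest in the blood-forming head kidney at 50.2 FPKM. The library labelled brain followed at 43.1, kidney at 40.8 and heart at 10.8 FPKM. The remaining 11 libraries lay between 1.05 FPKM in skin and 4.48 in spleen, and the median of all 15 was 3.1. The top 3 libraries are close, with a gap of 0.21 on the log2(FPKM + 1) scale between head kidney and the library labelled brain, and their order cannot be called without replicates.

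**Figure D2:**
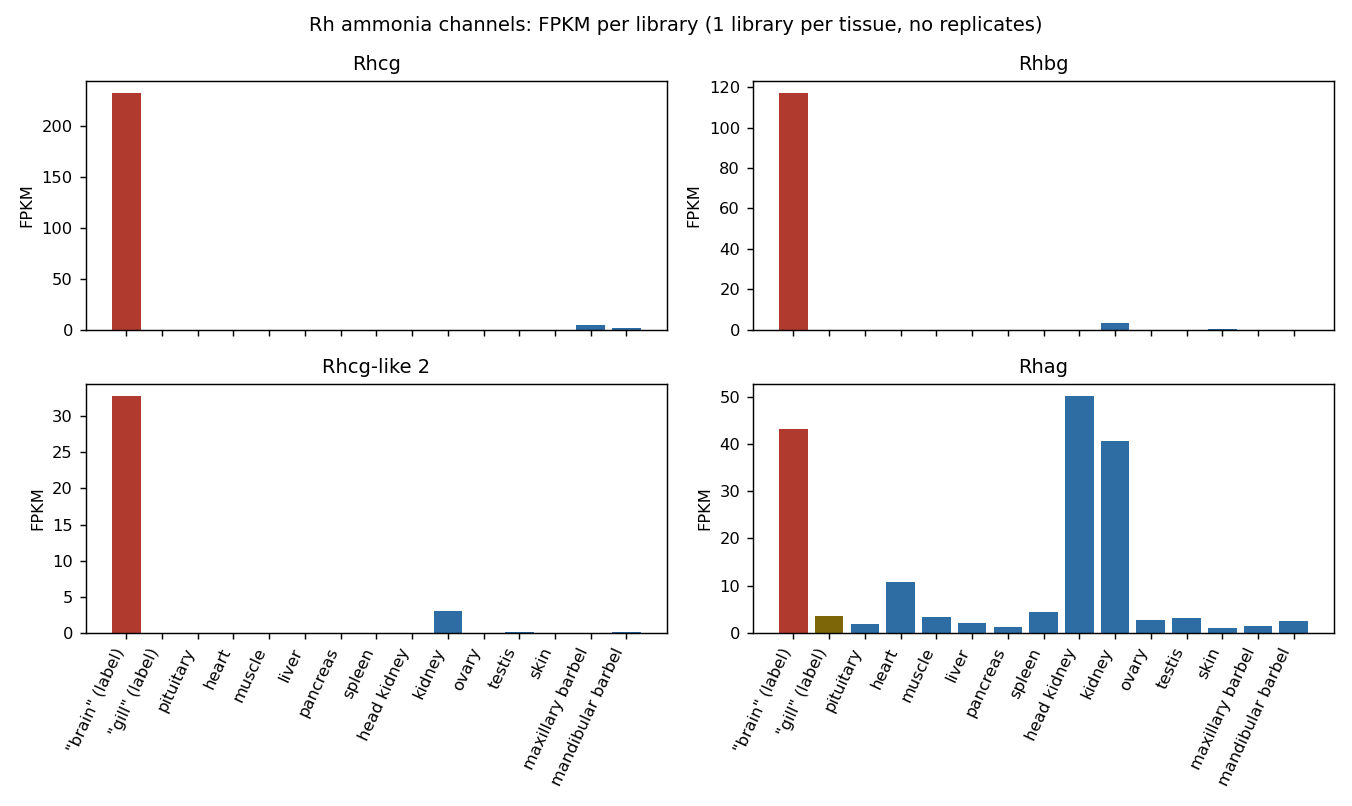
FPKM (y axes, linear and starting at 0, with a scale of their own in each panel) of the 4 Rh genes in the 15 libraries (x axis), 1 bar per library with no replicates, the library labelled brain in red and the library labelled gill in olive. Rhcg, Rhbg and Rhcg-like 2 reach 232, 117 and 32.8 in the library labelled brain, and Rhag is also high in head kidney and kidney.

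Summed over the 4 Rh genes, the library labelled brain held 425 FPKM, head kidney 50.2, kidney 47.0 and heart 10.9, and the other 11 libraries between 1.22 in pancreas and 5.90 in maxillary barbel. In the library labelled brain, Rhcg made up 54.6% of that sum, Rhbg 27.5%, Rhag 10.1% and Rhcg-like 2 7.71%. Rhag made up 86.8% in kidney and almost all of the sum in head kidney, and Rhcg made up 76.1% in maxillary barbel and 37.2% in mandibular barbel. Each share is taken within a library, so a scaling of that library leaves it as it is. In bulk tissue, fewer cells of a type and less RNA per cell cannot be told apart.

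Rhag was set beside 7 genes of red blood cells (globins, the erythroid 5-aminolevulinate synthase ALAS2, which starts haem synthesis, and the band 3 anion exchanger), with Rhag itself left out of that list. This comparison was chosen after the values were seen. Their summed FPKM was 18067 in kidney, 14165 in head kidney, 6889 in heart, 3311 in spleen, and 3148 and 1579 in the libraries labelled brain and gill. Per 1000 FPKM of that sum, Rhag stood at 3.54 in head kidney, 2.26 in kidney, 2.30 in the library labelled gill, 1.57 in heart and 1.35 in spleen. The library labelled brain, at 13.7, lay above these 5 libraries. Against ALAS2 alone, the ratio was 2.85 in the library labelled brain, 0.552 in head kidney, 0.404 in kidney, 0.358 in spleen and 0.322 in heart. Where red cell genes were scarce, Rhag per 1000 FPKM of the sum was above the 13.7 of the library labelled brain. It was 16.9 in skin, 47.8 in ovary, 101 in mandibular barbel and 107 in maxillary barbel, on sums of 62.0, 57.6, 25.9 and 13.1 FPKM. What part other cells have in the Rhag level was not tested.

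**Figure D3:**
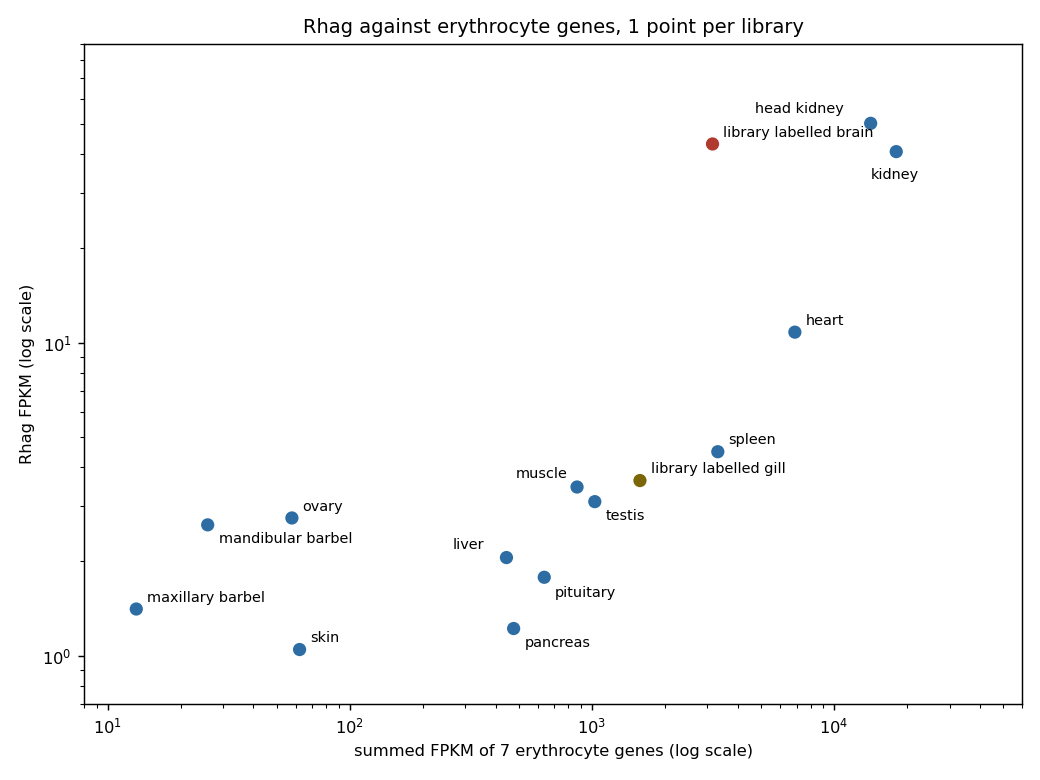
Rhag FPKM (y axis, log scale) against the summed FPKM of 7 erythrocyte genes (x axis, log scale), 1 point per library, the library labelled brain in red and the library labelled gill in olive. The library labelled brain and spleen have like sums of 3148 and 3311, and Rhag levels of 43.1 and 4.48.

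A related locus that the naming rule leaves out, the Rh blood group D antigen (C0J50_01334), which belongs to the red cell membrane, was highest in head kidney at 5.43 FPKM, followed by kidney at 4.5 and heart at 1.25. In the library labelled brain it stood at 0.785 FPKM, in contrast to Rhag. It was singled out, like the NHE3 loci below, after the values were seen.

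Of the plasma membrane exchangers, 1 of 4 loci reached 5 FPKM and none was tissue-enriched. NHE1, the widely used regulator of cell pH and volume, was annotated at C0J50_00662 (scaffold34, 3284981 to 3317424, plus strand, 12 coding exons, 2322 coding bases) and at C0J50_16705 (scaffold178172, 567 to 17082, plus strand). The first stood at 5.86 FPKM in ovary, 2.88 in heart, 2.75 in head kidney, 2.57 in the library labelled gill, and 2.43 in both kidney and the library labelled brain. It was between 0.145 and 1.46 FPKM in the other 9 libraries. The lead of ovary over the next library was 0.822 on the log2(FPKM + 1) scale, 0.535 after a common sum and 0.109 after median ratios. The second was also highest in ovary, at 3.96 FPKM, and below 1 FPKM elsewhere, with heart next at 0.913. Both loci carry the same protein name and a similar order of libraries, and how fragments were assigned between them was not tested.

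NHE2 (C0J50_19812), an apical exchanger of mammalian epithelia, and NHE5 (C0J50_14660), which in mammals is mainly a neuronal form, were each at 1 FPKM or more in a single library. NHE2 stood at 1.23 FPKM in the library labelled brain, 0.630 in maxillary and 0.527 in mandibular barbel, and at most 0.132 in the others. Its 3 highest libraries were those of Rhcg, in the same order as deposited, at far lower levels, but after median ratios NHE2 was highest in maxillary barbel. NHE5 stood at 1.63 FPKM in pituitary, 0.861 in testis and 0.614 in the library labelled gill, and at 0.0642 in the library labelled brain.

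NHE3, the apical exchanger of the gill and kidney tubule, is named in the annotation by its solute carrier family and so is no member, but it completes the class. Its locus C0J50_07914 stood at 115 FPKM in the library labelled brain, 29.9 in testis and 15.1 in kidney, and at most 0.0832 in the remaining libraries. A short second model, C0J50_24816, with the same name and 375 coding bases, stood at 71.7, 8.38 and 8.74 FPKM in the same 3 libraries. In the library labelled brain NHE3 was therefore far above the 4 plasma membrane exchangers that are members, which summed to 4.16 FPKM there. C0J50_07914 was already among the genes of ionocytes and gill epithelium summed above to check the labels. Its level is therefore not a separate check of them.

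The organelle exchangers split into broadly detected loci and a pair of short NHE6 models with a narrow pattern. NHE6 acts in recycling endosomes, NHE7 in the trans-Golgi network and NHE8 in the Golgi and, in mammals, at the apical membrane of kidney and gut cells. The long NHE6 locus, C0J50_08041 (scaffold1156, 3418496 to 3429106, minus strand, 17 coding exons, 2121 coding bases, partial), was highest in ovary at 11.7 FPKM. The library labelled gill followed at 9.67, pituitary at 8.28, testis at 5.04 and the library labelled brain at 4.01 FPKM. It reached 1 FPKM in 11 libraries and was lowest in skin, at 0.302. The lead of ovary over the library labelled gill was 0.25 on the log2(FPKM + 1) scale, and it was -0.68 after scaling by median ratios and -0.24 after scaling to a common sum, so the order turned under both.

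The short NHE6 models, C0J50_03796 (scaffold257, 3466356 to 3472349, plus strand, 9 coding exons, 1095 coding bases) and C0J50_10972 (scaffold16208, 1232 to 2829, minus strand, 3 coding exons, 414 coding bases), behaved differently from the long one. C0J50_03796 stood at 16.1 FPKM in the library labelled brain, 6.41 in ovary and 2.99 in kidney, and at most 0.598 elsewhere. C0J50_10972 stood at 35.0, 11.1 and 7.16 FPKM in these libraries, then at 1.5 in skin, 1.24 in testis and 1.0 in pituitary. In the library labelled gill, where the long locus was second highest, they were at 0.0146 and 0.0379 FPKM. The correlation between the short models over the 15 libraries was r = 0.98 on log2(FPKM + 1), given as a description, against r = 0.43 between C0J50_03796 and the long locus. In the 5 libraries where both were at 0.5 FPKM or more, C0J50_10972 was 1.70 to 2.40 times as high as C0J50_03796. C0J50_10972 is the 1 locus on its scaffold, and the files do not show whether the short models are separate genes.

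NHE7 (C0J50_08983) and NHE8 (C0J50_00738) had the lowest tau of the members, 0.489 and 0.470. NHE7 ranged from 0.272 FPKM in muscle to 4.73 in ovary, with the library labelled gill at 3.24, head kidney at 3.08 and testis at 3.08. NHE8 ranged from 0.368 FPKM in liver to 2.40 in the library labelled gill, with pituitary at 1.92. Neighbouring libraries in these orders are separated by amounts that could not be judged without replicates, and NHE7 was highest in the library labelled gill after median ratios.

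**Figure D4:**
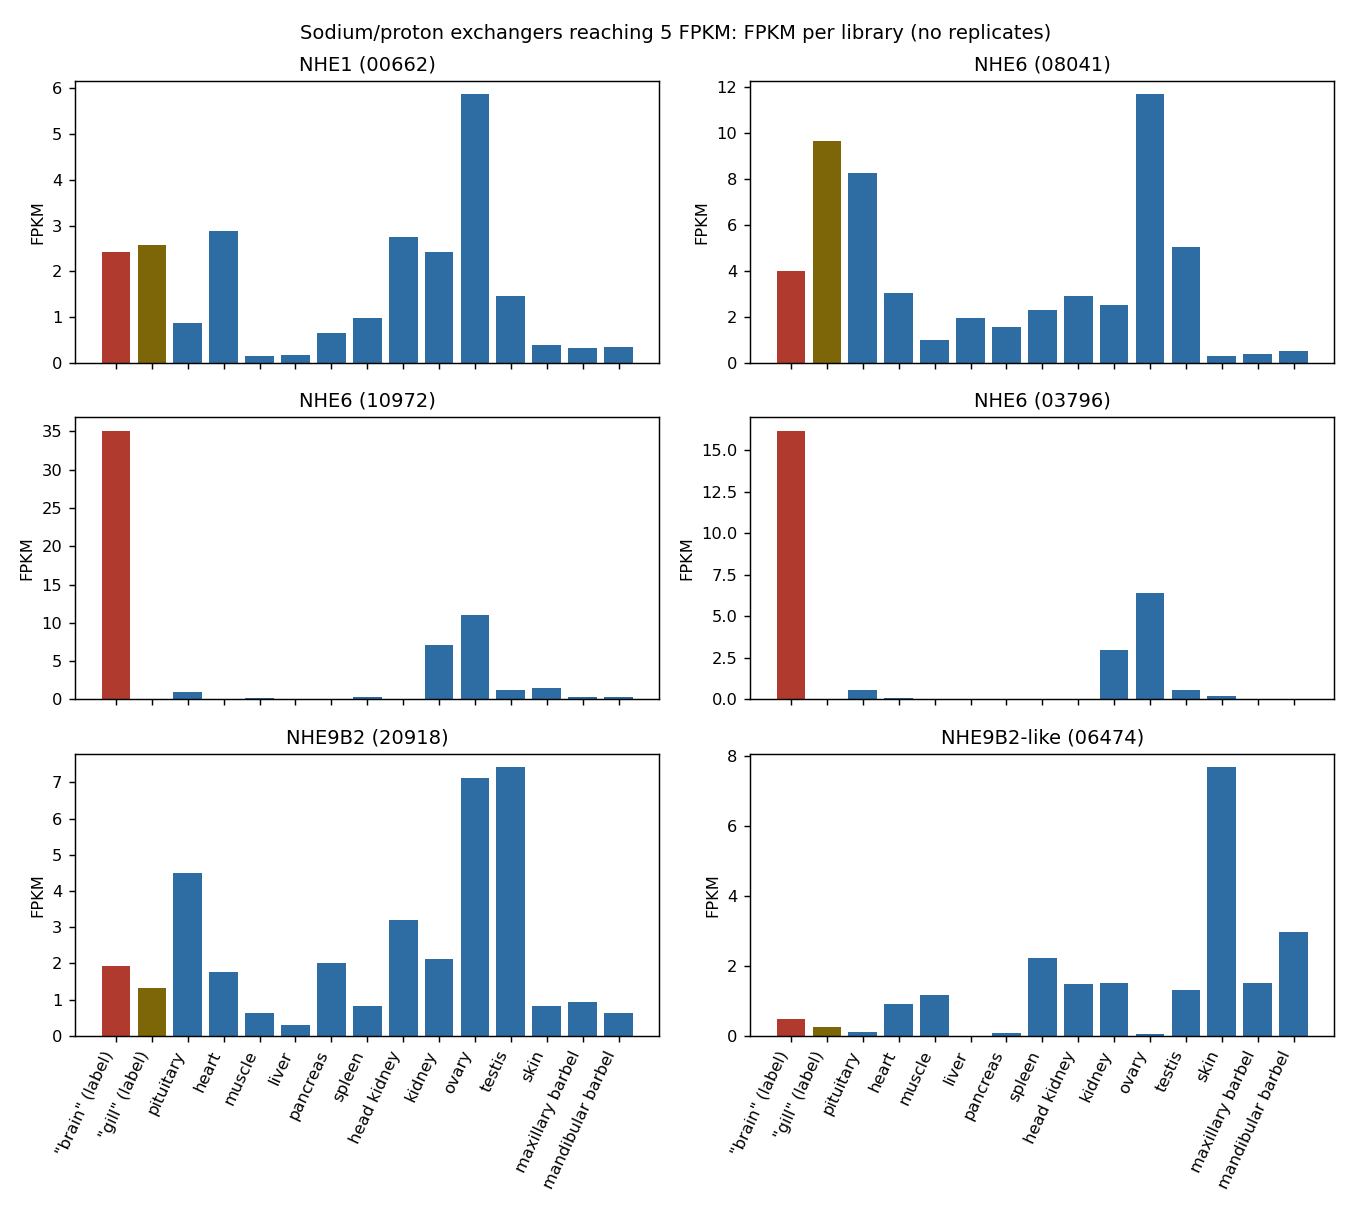
FPKM (y axes, linear and starting at 0, with a scale of their own in each panel) of the 6 exchanger loci that reached 5 FPKM in the 15 libraries (x axis), 1 bar per library with no replicates, the library labelled brain in red and the library labelled gill in olive. Both short NHE6 models share the library labelled brain, ovary and kidney as their highest 3, while the long NHE6 locus is high in ovary, the library labelled gill and pituitary.

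The SLC9B class, proton-coupled exchangers that in mammals are known from sperm, osteoclasts and the distal nephron, was highest outside the library labelled brain at all 4 loci. NHE9B2 at C0J50_20918 (scaffold178229, 511513 to 514775, plus strand, 11 coding exons, 1527 coding bases) stood at 7.41 FPKM in testis, 7.11 in ovary, 4.5 in pituitary, 3.19 in head kidney and 2.13 in kidney. Its lowest value was 0.307 FPKM in liver, and the order of testis and ovary turned under rescaling to a common sum. The 9B2-like model C0J50_06474, of 249 coding bases and partial, was highest in skin at 7.69 FPKM, then in mandibular barbel at 2.99, spleen at 2.22 and maxillary barbel at 1.51. Its skin level is 1.12 above mandibular barbel on the log2(FPKM + 1) scale, which is short of tissue-enriched.

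C0J50_06473, also named 9B2-like, lies 3291 bases before C0J50_06474 on scaffold586 and was the 1 member never detected, with a highest value of 0.483 FPKM in head kidney. C0J50_11607, a partial 9B2 model of 267 coding bases that is alone on its scaffold, stood at 1.75 FPKM in spleen, 1.67 in head kidney and 1.38 in kidney. The files do not show whether these 3 short models are separate genes, so their levels are less certain than that of C0J50_20918.

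Between the library labelled brain and the library labelled gill, 6 members differed by at least 4-fold on the log2(FPKM + 1) scale with the higher at 5 FPKM or more, all 6 higher in the library labelled brain, beside 7.73% of all genes in that direction. None was higher in the library labelled gill, beside 8.67% of all genes. The differences were 7.87 for Rhcg, 6.83 for Rhbg, 5.12 for NHE6 C0J50_10972, 5.07 for Rhcg-like 2, 4.08 for NHE6 C0J50_03796 and 3.25 for Rhag. The short NHE6 models are counted as separate loci here and may not be separate genes. Against skin, the other outer epithelium, the same 6 members were higher in the library labelled brain (13.4% of all genes), and the 9B2-like C0J50_06474 was higher in skin by 2.56 (1.76% of all genes). By the same rule, 2 of 6 genes of keratinocytes stood higher in the library labelled brain, 0 in skin and the rest in neither. Their summed FPKM was 2638 and 2198, but these sums came largely from different genes. Claudin-4 stood at 1360 against 0.405 in skin, and keratin 4 at 985 against 2087. The sums therefore do not show a like content of keratinocytes.

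Kidney and head kidney differed at 1 member, NHE6 C0J50_10972, higher in kidney by 2.98 on the log2(FPKM + 1) scale, in a pair where 0.470% of all genes were higher in kidney. Rhbg, Rhcg-like 2 and NHE6 C0J50_03796 also stood higher in kidney, by 2.07, 2.0 and 1.96, and none reached the 5 FPKM that the rule asks for. C0J50_03796 was also short of 4-fold, and with a minimum of 1 FPKM the count was 3, with no share of all genes beside it. Rhag, by contrast, was 0.29 lower in kidney. Ovary exceeded testis at 2 members, the short NHE6 models, beside 5.33% of all genes, and testis exceeded ovary at none, beside 8.22%. After median ratios the count was 0 both for kidney against head kidney and for ovary against testis, and at 10-fold it was also 0 for both. The maxillary and mandibular barbels, near-identical organs that serve as a yardstick rather than as replicates, differed at 0 members (0.207% of all genes), and heart and muscle at 0 (10.5%).

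The genes most like each member in their pattern over the 15 libraries were found by Pearson correlation of log2(FPKM + 1) among 15525 named genes that reach 5 FPKM. For Rhbg they were slc4a1b, an anion exchanger (C0J50_21432, r = 0.9987), foxi3a (r = 0.9955) and claudin-10, a tight junction protein (r = 0.9955). For Rhcg-like 2 they were slc4a1b (r = 0.9972), transmembrane protease serine 13 (r = 0.9965) and Rhbg (r = 0.9942). For Rhcg they were the large scaffold protein AHNAK at C0J50_09523 (r = 0.9949), chloride intracellular channel protein 3 (r = 0.993) and a second AHNAK locus (r = 0.9926), and all 3 were at 0.849 to 2.36 FPKM in the barbels. AHNAK C0J50_09523 and chloride intracellular channel protein 3 reached 1 FPKM in both barbels, and the second AHNAK locus did so in neither. The genes nearest to Rhbg and Rhcg-like 2 reached 1 FPKM in kidney. Since all these genes were picked by likeness over these same libraries, a shared next library is favoured by the choice and is no separate result.

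For the short NHE6 model C0J50_10972, the nearest genes were C0J50_03796 (r = 0.9842), GCMb (r = 0.9346), a transcription factor of fish ionocytes, and estrogen-related receptor gamma b (r = 0.9244). GCMb stood at 96.2 FPKM in the library labelled brain, 6.82 in ovary and 2.61 in kidney. These are the same 3 libraries in the same order as for that NHE6 model, whose pattern was used to pick GCMb. For Rhag the nearest were eukaryotic translation initiation factor 2 subunit 2 (r = 0.9517), a polymeric immunoglobulin receptor-like gene (r = 0.95) and carbonic anhydrase IV b (r = 0.9376). These correlations rest on the few libraries with high values: by Spearman rank, 1 of these 15 genes was again among the nearest 3.

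Other genes of the pathway were taken by protein name and counted by the same 4-fold rule. Of 57 genes of acid and salt transport in ionocytes, 9 were higher in the library labelled brain (7.73% of all genes), 13 in the library labelled gill (8.67% of all genes) and 35 in neither. Of the 9, foxi3a, GCMb and carbonic anhydrase C0J50_24221 were also among the ionocyte markers used above to check the labels, so the counts are not separate support. The Na+/K+ ATPase shows both directions: the alpha 1a subunit, tandem duplicate 4 (C0J50_08234), stood at 656 and 1.55 FPKM in the libraries labelled brain and gill, and the alpha 3a subunit, a neuronal form in mammals, at 0.624 and 224. The V-type proton ATPase is the other pump that can drive acid secretion. In the libraries labelled brain and gill, its B subunit kidney isoform stood at 36.8 and 6.75 FPKM and its brain isoform at 6.33 and 154. The kidney isoform was higher still in kidney, at 94.1, head kidney, at 92.6, and spleen, at 44.4 FPKM. Other subunits varied: catalytic subunit A stood at 68.0 and 96.0 FPKM and subunit S1 at 7.19 and 98.5 in the libraries labelled brain and gill. Carbonic anhydrase C0J50_24221, which supplies protons from carbon dioxide, stood at 346 and 31.7 FPKM, and carbonic anhydrase 14 at 66.8 and 0.720.

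Several of these genes had kidney second or among the next libraries, as Rhbg does. The kidney level as a share of that in the library labelled brain was 4.76% for slc4a1b, 3.63% for foxi3a, 3.27% for the Na+/K+ ATPase alpha 1a duplicate, 2.71% for GCMb and 13.2% for NHE3 C0J50_07914. Rhag, at 94.5%, and the short NHE6 models, at 18.5% for C0J50_03796 and 20.4% for C0J50_10972, were above all 5 of these. These shares were computed after the values were seen.

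Of 21 genes of ammonia metabolism, 5 were higher in the library labelled brain, 4 in the library labelled gill and 12 in neither, beside the same 7.73% and 8.67% of all genes. Glutamine synthetase, which binds ammonia into glutamine, was listed under 2 protein names. The loci used for these had opposite orders: C0J50_02938 stood at 151 and 28.2 FPKM in the libraries labelled brain and gill, and C0J50_06682 at 118 and 682. The glutamine transporter SNAT3 (C0J50_05653) stood at 34.3 against 0.633 FPKM, and carbamoyl-phosphate synthase at 26.2 against 0.445, while kidney-type glutaminase, which frees ammonia from glutamine, stood at 14.2 against 73.2. In head kidney and kidney, SNAT3 stood at 28.6 and 24.4 FPKM. Carbamoyl-phosphate synthase was higher there than in the library labelled brain, at 39.4 and 35.1, and at 27.6 in maxillary barbel. Of 12 partners of the exchangers, 1 was higher in the library labelled brain, 4 in the library labelled gill and 7 in neither, and 1 of 12 is near the 7.73% of all genes. That 1 was the NHE1 cofactor calcineurin B homologous protein 1, at 15.7 against 1.82 FPKM. The scaffold protein NHE-RF3 was highest in kidney, at 11.8 FPKM. Of 11 genes of the red cell membrane and haem synthesis, 0 were higher in the library labelled brain, 2 in the library labelled gill and 9 in neither, beside 7.73% and 8.67% of all genes, so the 0 is near the background for a list of this size.

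The gene models share exon lengths in ways the names did not use. Rhbg, Rhcg-like 2 and Rhag each contain a run of coding exons of 151, 148, 167 and 138 bases, which no other of the 25122 annotated loci holds. Rhcg contains the last 2 of these, 167 and 138, a pair found in 8 loci in all. In both Rhcg and Rhcg-like 2 this pair is followed by exons of 137, 125 and 74 bases. It is followed by 134, 119 and 74 in Rhbg and by 122, 74 and 74 in Rhag. Rhcg-like 2 thus shares a run with Rhcg that is longer than the one it shares with Rhbg and Rhag. Whether other loci hold that longer run was not tested. A run of 78, 77, 113 and 106 bases is held by the long NHE6 locus, the NHE6 model C0J50_03796 and NHE7 and by no other locus. A run of 203, 90 and 71 bases is held by both NHE1 loci, NHE5 and the NHE3 locus C0J50_07914 and by no other, and 251 followed by 218 by both NHE1 loci and NHE2. In NHE5 and that NHE3 locus the run of 203, 90 and 71 follows exons of 79, 178 and 221 bases. In both NHE1 loci it follows exons of 461, 251 and 218 bases and is followed by an exon of 177. The Rh and exchanger models share none of these runs with each other, and the comparison is of lengths alone.

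**Figure D5:**
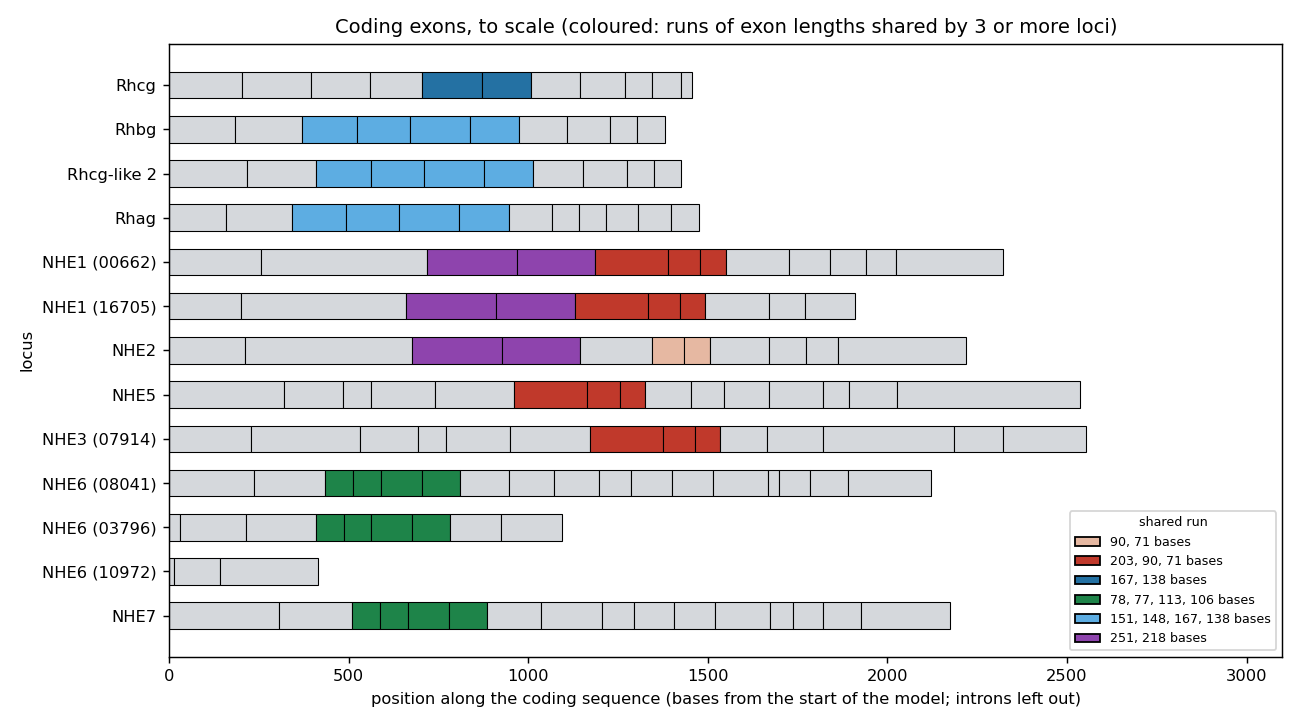
Coding exons of 13 loci (rows; NHE3 is no member) drawn to scale along the coding sequence in bases (x axis, introns left out), each box an exon and colours marking runs of exon lengths shared by 3 or more loci. The run of 151, 148, 167 and 138 bases lies in Rhbg, Rhcg-like 2 and Rhag, and the short NHE6 model C0J50_10972, of 3 exons, has no shared run.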

How the data were processed

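Per the labels, Trizol extraction and DNase treatment were followed by poly(A) selection and paired-end library preparation. The authors deposited FPKM for 25089 genes in 15 columns, 1 per tissue, and StringTie 1.3.4d was used per the submitters' processing notes. For the aligner and the genome build, the sources used here give no name. A deposited annotation of 25122 loci gave protein names, scaffolds and coding exons, and 25064 of the 25089 genes had an entry there. No column was left unused (0). No counts were given, so depth was judged only from the smallest recurrent step of FPKM times coding length.

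Members and gene lists were chosen with earlier results of these data known. Members reaching 5 FPKM were described by value, and the others mainly by range; the 3 most similar genes were sought for members reaching 20 FPKM. Where several rows matched a partner or marker name, the row of highest mean was used. Folds used a pseudocount of 1. The rules were tested on simulated data. Alternatives were median-ratio scaling over 5659 genes, a common sum as in TPM, a pseudocount of 0.1, other FPKM minimums, a 10-fold rule and libraries left out. Python 3.11.15, numpy 2.4.6, pandas 2.3.3 and matplotlib 3.10.9 were used. No sequence is shown, since no reference sequence was used here.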

Additional observations from a re-analysis of the deposited data

How the results depend on the processing

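Of 47 recomputed counts, 39 stayed within 1.5 times the reported one. The 39 include those for the barbel pair and for heart against muscle, which were 0 throughout, so that a ratio says little there. Detected members went from 16 to 10 at 5 FPKM. Without the libraries labelled brain and gill, tissue-enriched members went from 3 to 0 and, in an alternative chosen after seeing the data, members reaching 20 FPKM from 5 to 1. No share of all genes was set beside these counts. The kidney against head kidney count of 1 became 0 after median ratios, 0 at 10-fold and 3 with a minimum of 1 FPKM. The ovary against testis count of 2 became 0 after median ratios and 0 at 10-fold. The counts for the library labelled brain against the library labelled gill and against skin stayed within 1.5 times under all 5 alternatives run for each. The divisors of the median-ratio scaling were lowest for pancreas, 0.517, and highest for ovary, 2.06. The highest library stayed the same for 12 of 17 members after median ratios and 14 after a common sum: NHE6 C0J50_08041 moved to the library labelled gill in both, NHE7 likewise and NHE2 to maxillary barbel after median ratios, NHE9B2 C0J50_20918 to ovary after a common sum, and C0J50_06473 (both scalings) and C0J50_11607 (median ratios) to muscle. No paired analysis was possible because each tissue has 1 library. Depth limits the lowest values in muscle, skin and the barbels, and no difference here has a replicate check.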
